A study of Homo sapiens with 38 samples.

Results

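Pracinostat is a hydroxamic acid that inhibits histone deacetylases (HDACs), and the libraries described here come from lymphoma cells kept with it for 14 days. All libraries titled PRACINO or DMSOP at 14 days were taken, which gave 10 of the 38 samples of the series. The cells were 5 established lines from human diffuse large B-cell lymphoma, here DLBCL, named OCILY1, PFEIFFER, SUDHL4, TOLEDO and WSUDLCL2. Each line had 1 PRACINO library, from cells with pracinostat, and 1 DMSOP library, from cells with the solvent dimethyl sulfoxide (DMSO). Values of the 5 lines are given in that order throughout. The P of DMSOP was read as marking the solvent set of pracinostat, which the labels do not state. A further solvent set, DMSOV, and a vorinostat set, VORINO, were made in the same 5 lines at 14 days, and pracinostat and solvent libraries at 6 h came from these lines and SUDHL6. The labels give no dose and do not say which libraries were separate cultures. The p-values rest on a spread between lines, library noise included, that all 20 libraries of 14 days share. That spread is not that of the pracinostat difference alone, since vorinostat and both solvent sets enter it. The growth text of the labels gives media and supplements and says that line identity was checked by DNA profiling. The series title speaks of sensitivities that differ between DLBCL cells, and no label ranks the lines.

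Each library gives read counts per gene, with totals of 4.71 to 8.33 mega counts (M) in PRACINO and 4.49 to 8.92 M in DMSOP. Levels are given in counts per M (CPM), scaled by TMM (trimmed mean of M-values) factors, and they compare libraries, not genes, because they are not divided by gene length. Where a library has 0 counts of a gene, up to 3 remain possible from counting error alone, or 0.350 to 0.671 CPM in PRACINO and 0.341 to 0.648 CPM in DMSOP. Log2 fold changes are PRACINO over DMSOP with a standard error (SE) and come from edgeR's quasi-likelihood fit with the line as block. The p-values of that test were adjusted by Benjamini and Hochberg's method over all 14037 genes tested, and a gene with an adjusted p under 0.05 is called. The B-cell identity of the libraries was checked with 5 markers, MS4A1, CD79A, CD79B, PAX5 and CD22. Their summed level was 2875 to 7337 CPM in PRACINO (median 6363) and 2215 to 5712 CPM in DMSOP (median 3030), and no library lacked them.

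Histones carry acetyl groups on lysines near active promoters. Acetyltransferases such as CREBBP and EP300 add these groups, HDACs take them off, and HDAC inhibitors such as pracinostat and vorinostat block the zinc-dependent HDACs. Mutations of CREBBP and EP300 recur in germinal centre lymphomas, and loss of CREBBP is known to lower the MHC class II genes through which B cells present antigen. Induction of CDKN1A, which encodes the cell cycle inhibitor p21, is a textbook response to this drug class. Promoters of 3 genes on which the results turn are shown first, each from 250 bases before to 50 bases after the RefSeq start (GRCh38.p14). CDKN1A, whose promoter has GC boxes (GGGCGG in capitals), is on the plus strand at chr6:36678464-36678763. KIF14, a mitotic motor gene, is on the minus strand at chr1:200620702-200621001, with its CHR element (TTTGAA, here on the other strand) and Y box (CCAAT) in capitals. HLA-DMA, a class II gene, is on the minus strand at chr6:32953048-32953347, with its Y boxes in capitals on the other strand.
CDKN1A: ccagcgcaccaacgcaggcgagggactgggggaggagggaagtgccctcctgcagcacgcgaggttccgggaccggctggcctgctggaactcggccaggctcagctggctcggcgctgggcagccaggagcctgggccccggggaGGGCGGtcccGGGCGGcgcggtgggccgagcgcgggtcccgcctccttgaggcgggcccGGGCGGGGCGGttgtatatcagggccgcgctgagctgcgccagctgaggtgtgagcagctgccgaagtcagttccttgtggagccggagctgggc
KIF14: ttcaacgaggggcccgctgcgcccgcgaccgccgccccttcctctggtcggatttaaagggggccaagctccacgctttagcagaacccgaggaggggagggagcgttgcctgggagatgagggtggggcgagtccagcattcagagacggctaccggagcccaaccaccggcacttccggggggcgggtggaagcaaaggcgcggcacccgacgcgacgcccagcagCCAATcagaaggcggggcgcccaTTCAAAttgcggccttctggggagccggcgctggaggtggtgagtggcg
HLA-DMA: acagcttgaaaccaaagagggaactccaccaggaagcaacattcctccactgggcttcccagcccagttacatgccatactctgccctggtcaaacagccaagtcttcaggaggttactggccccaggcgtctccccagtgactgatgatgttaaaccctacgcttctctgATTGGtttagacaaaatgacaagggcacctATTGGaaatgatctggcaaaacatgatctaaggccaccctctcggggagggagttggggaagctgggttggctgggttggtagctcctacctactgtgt
The motifs were searched on both strands in all 27305 promoters of that length, of which 9814 could be matched to a tested gene. CHR elements were found in 25 of 36 matched promoters of G2/M and mitotic genes (69.4%), against 9.82% of tested and 15.4% of all promoters. One was in 2 of 35 matched G1/S promoters (5.71%), below the share of tested promoters, and in 6 of 16 matched class II promoters (37.5%), above it. Y boxes stood in 75% of the G2/M promoters, 57.1% of the G1/S promoters and 81.2% of the class II promoters, against 37.2% of tested and 35.7% of all promoters. GC boxes were in 80.6%, 71.4% and 31.2% of these lists, and in 70% of tested and 44.6% of all promoters. A match is a string of letters in a window and says nothing of binding.

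After 14 days with pracinostat, genes of mitosis, DNA replication and DNA repair were lower and MHC class II genes were higher. Several B-cell surface genes were also called higher, in lists of which most members were not called. The 10 largest rises were mostly of genes with few counts in the solvent libraries. The test called 3167 of 14037 genes (22.6%), 1733 of them higher (12.3%) and 1434 lower (10.2%). The median log2 fold change of all genes tested was 0.07. Of the genes called, 2634 had the same sign in 5 of 5 lines, 1315 of them higher (9.37% of genes tested) and 1319 lower (9.4%). Rises were larger than falls, since 1175 of the genes called higher and 302 of those called lower had a fitted change of at least 2-fold. The 5 PRACINO libraries stood wholly above the 5 DMSOP libraries for 148 genes (1.05%) and wholly below for 262 (1.87%). By annotation, 1486 protein-coding genes were higher and 1379 lower of 11826 tested. Antisense genes were higher in 75 and lower in 9 of 600, and lincRNA genes in 67 and 7 of 474. The strand setting of the counting is not given, so reads of an antisense gene and of its partner cannot be told apart. The same holds where genes overlap, as many of the genes named here do in the annotation. Examples are KIF20A with BRD8 and CDC23, CIITA with AC133065.3 on the same strand, PAX5 with AL161781.2, MPEG1 with DTX4 and FADS2 with FADS1, where the partner was called in the same direction. HLA-DMA with BRD2 and HLA-B with HLA-C are examples in which the partner was not called. In some gene lists the share called in the main direction stands near, or not far above, the share of all genes. Examples are those of class I presentation, B-lineage, B-cell activation, deacetylases, p53 targets, lysosomes and ribosome biogenesis. Such lists are described for their members and not as a shift of the list. Leaving out PFEIFFER left 1424 genes called, leaving out SUDHL4 1793 and leaving out OCILY1 1970, and 965 genes (486 higher, 479 lower) were called without each line in turn.

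Every line showed more change against its solvent than the solvent sets showed against each other. Among 10620 genes with a mean of at least 5 CPM, the PRACINO library of OCILY1 was at least 2-fold higher than its DMSOP library for 1145 genes and lower for 485. These counts were 1210 and 675 in PFEIFFER, 1112 and 701 in SUDHL4, 702 and 263 in TOLEDO, and 964 and 421 in WSUDLCL2. Between DMSOP and DMSOV of the same line 88, 48, 194, 115 and 449 genes differed 2-fold in either direction, so the solvent libraries of WSUDLCL2 stood furthest apart. A 2-fold rise occurred in 2670 genes in at least 1 line and in 71 genes in 5 of 5 lines, and a 2-fold fall in 1506 and 45 genes. TOLEDO had the smallest change of the 5 lines in 30.9% of the genes called higher and 38% of those called lower. SUDHL4 had the largest change in 36.9% and PFEIFFER in 34% of the genes called lower, and OCILY1 in 29.3% of those called higher.

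**Figure D1:**
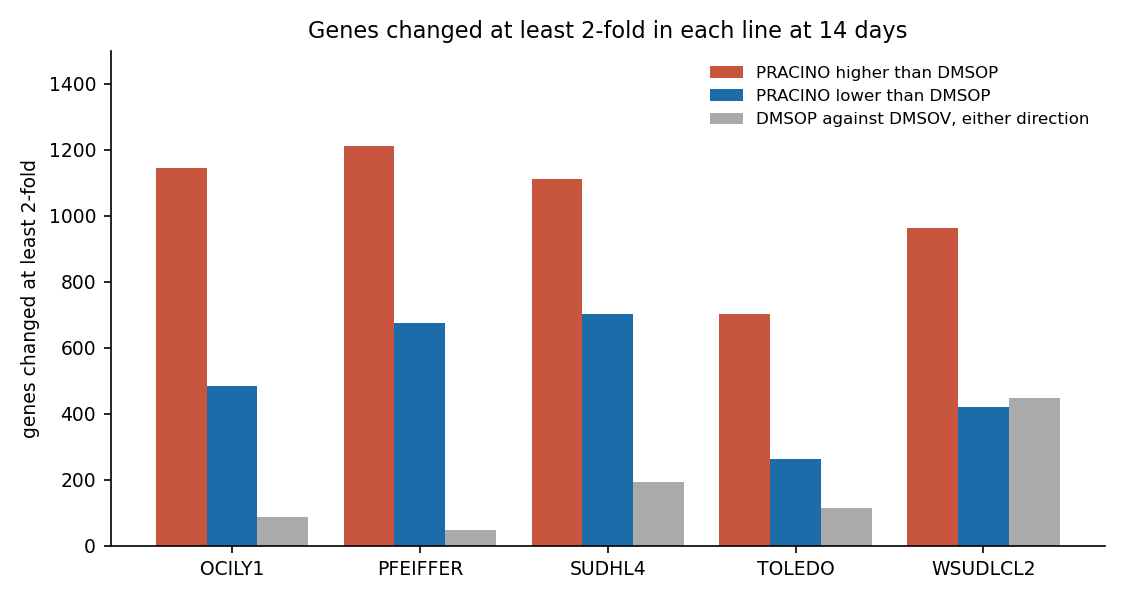
Bars give, for each line at 14 days, the number of genes (of 10620 with a mean of at least 5 CPM) at least 2-fold higher in PRACINO than in DMSOP, at least 2-fold lower, and 2-fold apart in either direction between DMSOP and DMSOV. Each line has 1 library per group; rises outnumber falls in every line, and TOLEDO has the fewest of both (702 and 263).

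CDKN1A (ENSG00000124762, GRCh38 chromosome 6, 36676460 to 36687339), whose promoter is printed above, had 150.1, 7.63, 20.6, 73.7 and 71.0 CPM with pracinostat, against 11.3, 7.29, 10.6, 17.5 and 8.65 CPM in DMSOP. OCILY1, TOLEDO and WSUDLCL2 were raised 4-fold or more, SUDHL4 less, and PFEIFFER hardly (line log2 fold change 0.06), so the groups overlapped. Its log2 fold change was 2.08 (SE 0.53, adjusted p 0.0126). The call was lost without OCILY1 (adjusted p 0.0884) and without WSUDLCL2 (0.0558). None of the other 5 tested genes of the CIP/KIP and INK4 families of CDK inhibitors was called, and the median of the 6 was -0.28. Of 17 tested genes reported to rise with HDAC inhibitors 5 were higher (29.4%), against 12.3% of all genes tested, and 0 lower. The median was 0.51, and 3 were called without SUDHL4, TOLEDO or WSUDLCL2. Members with few counts in most DMSOP libraries, such as HDAC11, passed the filter on low counts largely through libraries of other groups. This count is therefore no sign of a property of the list.

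Mitotic genes fell together. Of 42 G2/M and mitotic genes, all of them tested, 42 were called lower, against 10.2% of all genes tested, and each was lower in 5 of 5 lines, with a median log2 fold change of -1.52. KIF20A (ENSG00000112984, GRCh38 chromosome 5, 138178719 to 138187715), a kinesin of the central spindle, had 28.2, 29.8, 19.5, 46.3 and 39.7 CPM with pracinostat, against 81.2, 112, 122, 109 and 134 CPM in DMSOP. Its groups did not overlap, and the log2 fold change was -1.79 (SE 0.33, adjusted p 0.00237). KIF14, the motor gene whose CHR element and Y box are printed above, had 22.0, 14.7, 11.3, 96.6 and 20.6 CPM with pracinostat, against 67.1, 86.4, 71.0, 177 and 78.2 CPM in DMSOP. TOLEDO kept the most KIF14 in both groups and in PRACINO lay above the DMSOP level of the other lines. The log2 fold change of KIF14 was -1.85 (SE 0.34, adjusted p 0.00229). CCNA2, which encodes cyclin A2, changed by -1.79 (SE 0.41, adjusted p 0.00692) and MKI67, the Ki-67 proliferation marker, by -1.58 (SE 0.38, adjusted p 0.00884), and neither gene overlapped between the groups. MKI67 averaged 272 ± 140.0 CPM with pracinostat and 758 ± 196 CPM in DMSOP (SD, n = 5 each). Further falls were those of KIF18B, another kinesin, with -1.86 (SE 0.36), DLGAP5, a spindle protein, with -1.82 (SE 0.40), NEK2, a centrosome kinase, with -1.74 (SE 0.39), and PSRC1, a microtubule-binding protein, with -1.59 (SE 0.40). Their adjusted p-values were 0.00322, 0.00563, 0.00688 and 0.0121. Without PFEIFFER 29 of the 42 genes were called, and CCNA2 (adjusted p 0.0504) and MKI67 (0.0556) were among those lost, while PSRC1 was lost without WSUDLCL2 (0.0581). Line medians of the list ran from -0.94 in TOLEDO to -2.23 in SUDHL4. In bulk libraries, fewer cells in a phase of the cycle and less RNA per cell cannot be told apart.

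**Figure D2:**
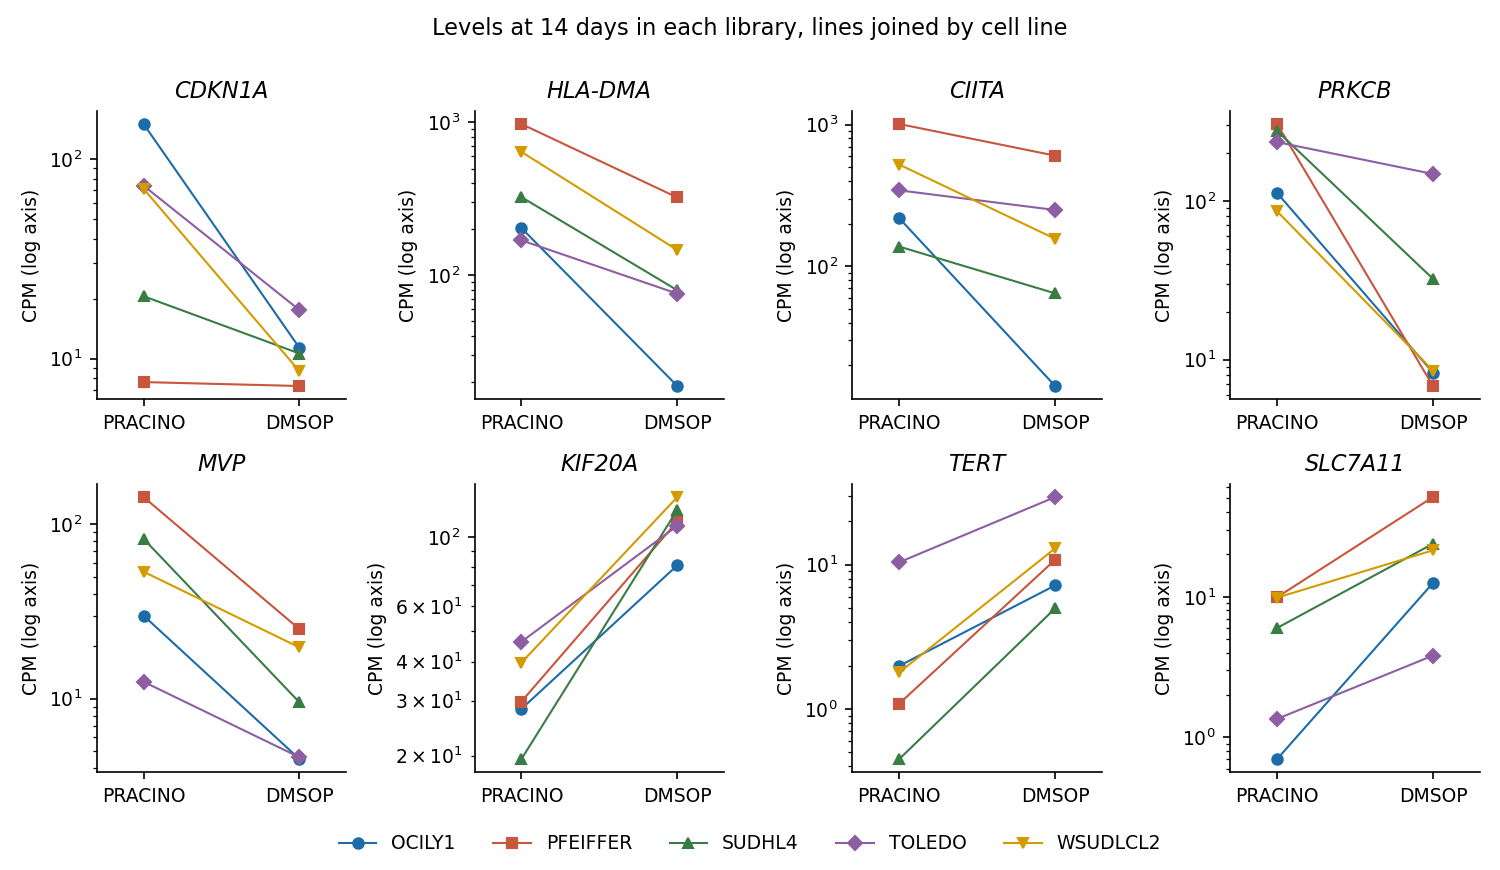
CPM on log axes of CDKN1A, HLA-DMA, CIITA, PRKCB, MVP, KIF20A, TERT and SLC7A11 at 14 days, PRACINO on the left and DMSOP on the right of each panel, with 1 point per library and the 2 libraries of a line joined. KIF20A, TERT and SLC7A11 are lower in PRACINO in each line, CDKN1A stays near 7 CPM in PFEIFFER (7.63 against 7.29 CPM), and the other genes are higher in each line.

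Replication genes were lower in fewer members. Of 40 G1/S and DNA replication genes 27 were called lower and 0 higher, with a median of -1.13, and the 40 fitted changes were all below 0. ORC1, a subunit of the origin recognition complex, had 25.1, 17.4, 13.8, 24.4 and 33.2 CPM with pracinostat, against 61.0, 62.0, 80.5, 60.9 and 81.7 CPM in DMSOP, and the groups did not overlap (log2 fold change -1.67, SE 0.30, adjusted p 0.00225). CDC25A, the phosphatase that activates CDK2, had 29.0, 6.90, 17.4, 35.9 and 19.0 CPM with pracinostat, against 56.1, 42.1, 75.1, 96.5 and 41.3 CPM in DMSOP, and the PRACINO library of PFEIFFER was the lowest of all 10. Its log2 fold change was -1.66 (SE 0.34, adjusted p 0.00416). MCM10, a replication fork factor, changed by -1.79 (SE 0.46, adjusted p 0.0133) and lost its call without PFEIFFER (adjusted p 0.0725). PCNA, the sliding clamp, changed by -1.27 and TYMS, thymidylate synthase, by -1.59. Without PFEIFFER only 9 members were called, and the line medians ran from -0.46 in OCILY1 to -1.98 in SUDHL4. PCNA and TYMS, and below BRCA1, BRCA2, KAT2B, KAT6A, KAT7 and TNFRSF13C, lie outside the naming rule and were picked after their values were seen.

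Genes of homologous recombination and of the Fanconi pathway, which repair broken and crosslinked DNA, gave 22 of 28 members lower and 0 higher, with a median of -1.14. RAD54L, a DNA translocase of homologous recombination, had 12.2, 8.36, 3.75, 19.9 and 12.8 CPM with pracinostat, against 31.7, 32.6, 35.3, 35.4 and 29.7 CPM in DMSOP. All 5 PRACINO libraries were below all DMSOP libraries, and the log2 fold change was -1.64 (SE 0.31, adjusted p 0.00254). EME1, a subunit of a structure-specific nuclease, changed by -1.60 (SE 0.31, adjusted p 0.00292). BRCA1 changed by -1.48 and BRCA2 by -1.33. Without PFEIFFER 11 members were called. AUNIP, which binds the mitotic kinase Aurora A and acts in end resection, had 3.40, 3.03, 2.85, 5.12 and 2.24 CPM with pracinostat, against 9.25, 14.1, 24.2, 14.9 and 13.7 CPM in DMSOP. It was lower in each line without overlap, and changed by -2.10 (SE 0.34, adjusted p 0.00113).

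TERT, which encodes the reverse transcriptase of telomerase (ENSG00000164362, GRCh38 chromosome 5, 1253147 to 1295069), showed the largest fall among the genes past the level the naming rule asks for. It had 1.99, 1.09, 0.45, 10.4 and 1.79 CPM with pracinostat, against 7.18, 10.8, 4.98, 29.4 and 13.0 CPM in DMSOP. TOLEDO was highest in both groups, and its PRACINO library reached the level of the DMSOP libraries of other lines, so the groups overlapped although each line fell. The log2 fold change was -2.40 (SE 0.38, adjusted p 0.00104), and it lay between -2.82 and -2.18 without any 1 line. Of 11 tested telomerase and shelterin genes 3 were called lower and 0 higher, the others being WRAP53, a telomerase assembly factor (-0.64), and TERF1, which coats telomeres (-0.50). Without OCILY1 or without PFEIFFER TERT alone of the 11 was called. FAM72A, FAM72B, FAM72C and FAM72D, near-identical copies on chromosome 1 between which counting may have split reads, stood beside TERT among the 10 largest falls, with log2 fold changes of -1.98, -2.08, -2.28 and -2.16. FAM72B had 9.25, 6.78, 8.41, 15.4 and 8.52 CPM with pracinostat, against 40.3, 42.1, 47.2, 34.8 and 38.5 CPM in DMSOP, with no overlap.

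Tubulin genes divided. Of 20 tubulin and microtubule genes 6 were lower and 2 higher, with a median of -0.04. TUBA1B and TUBA1C, similar alpha-tubulin copies whose reads may be shared, changed by -1.37 (SE 0.21) and -1.26 (SE 0.23), and STMN1, which encodes the microtubule destabilizer stathmin, by -1.12 (SE 0.28). The adjusted p-values were 0.000882, 0.00219 and 0.0102, the last lost without PFEIFFER (0.0567), when 3 members in all were called lower. MAPRE3, which encodes the microtubule end-binding protein EB3 and is best known from neurons and muscle, had 9.84, 11.4, 14.4, 7.83 and 11.9 CPM with pracinostat, against 1.83, 2.47, 4.98, 2.64 and 3.87 CPM in DMSOP. No PRACINO library was below 7.83 CPM and no DMSOP library above 4.98 CPM, and the log2 fold change was 1.86 (SE 0.21, adjusted p 0.000226). TUBB2B, a beta-tubulin of neurons whose reads may be shared with its near-identical copy TUBB2A, had 6.44, 9.08, 0.15, 0.904 and 291 CPM with pracinostat, against 0.365, 2.12, 0, 0 and 5.8 CPM in DMSOP. WSUDLCL2 carried most of that rise and SUDHL4 had 1 count, so the fitted change of 4.31 (SE 0.90) moved from 3.09 without WSUDLCL2 to 5.63 without PFEIFFER.

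Most of the deacetylases themselves were not called. HDAC1 had 772, 713, 497, 176 and 579 CPM with pracinostat, against 655, 653, 413, 159.8 and 536 CPM in DMSOP. The PRACINO library was the higher of the pair in 5 of 5 lines, but without a call (log2 fold change 0.17, SE 0.09, adjusted p 0.161). HDAC2 was at a log2 fold change of -0.31 (SE 0.13, adjusted p 0.0988), HDAC3 at -0.06 (SE 0.12, adjusted p 0.737) and HDAC6, a cytoplasmic tubulin deacetylase, at 0.12 (SE 0.13, adjusted p 0.548). With DMSOV in place of DMSOP as control, HDAC1 (0.26) and HDAC2 (-0.42) were called. Of 16 deacetylase and sirtuin genes 2 were called higher and 1 lower, and 1 was higher without OCILY1, PFEIFFER or SUDHL4. HDAC11, the class IV member, had 3.86, 8.72, 3.90, 0.904 and 4.03 CPM with pracinostat, against 0.365, 3.53, 0.433, 0 and 0.797 CPM in DMSOP. All lines were higher, from levels at which 4 DMSOP libraries held 0 to 7 counts, and the fitted change was 2.34 (SE 0.49, adjusted p 0.00449). SIRT1, an NAD-dependent deacetylase, was lower without overlap (log2 fold change -0.69, SE 0.15, adjusted p 0.00562), and SIRT2 changed by 0.43.

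Histone acetyltransferase genes were lower where they changed, with 6 of 12 called lower and 0 higher (median -0.42). The 6 were HAT1, which acetylates new histone H4 (-0.81), KAT5 (-0.63), KAT6B (-0.56), KAT2B (-0.55), KAT6A (-0.52) and KAT7 (-0.47). This count was 0 without OCILY1 or without PFEIFFER and 1 without SUDHL4, and without OCILY1 1 member was called higher. Neither CREBBP, at -0.37 (SE 0.19, adjusted p 0.162), nor EP300, at -0.17 (SE 0.18, adjusted p 0.516), was called. Of 27 genes of Polycomb, DNA methylation and histone methylation 5 were lower and 2 higher, with a median of -0.22. SUV39H1, which methylates lysine 9 of histone H3 in heterochromatin, had 8.78, 6.06, 10.4, 24.3 and 12.5 CPM with pracinostat, against 17.8, 20.8, 27.3, 51.7 and 25.0 CPM in DMSOP, lower in each line by a log2 fold change of -1.24 (SE 0.16, adjusted p 0.000425). NSD2, which methylates lysine 36 of histone H3, changed by -1.18 (SE 0.20, adjusted p 0.00137). DNMT3B, a de novo DNA methyltransferase, changed by -1.43 (SE 0.35, adjusted p 0.0098), was nearly level in WSUDLCL2 (0.06) and lost its call without PFEIFFER (0.0699). KDM5B, a demethylase of lysine 4, rose by 1.69. EZH2, the Polycomb methyltransferase that is often mutated in this lymphoma, was at -0.34 (SE 0.17, adjusted p 0.153) and was called (-0.49) with DMSOV as control. Among 17 histone genes 4 were lower and 1 higher, with CENPA, the centromeric histone H3, at -1.69 and H2AFZ, a variant H2A, at -1.18. Without PFEIFFER 2 of the 27 Polycomb and methylation genes were called lower, and none was called higher without PFEIFFER, SUDHL4 or WSUDLCL2.

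MHC class II genes were higher. Of 19 class II and loading genes 14 were called higher, against 12.3% of all genes tested, and 0 lower, with a median of 1.11, and 10 were higher in 5 of 5 lines. HLA-DMA (ENSG00000204257, GRCh38 chromosome 6, 32948613 to 32969094), one chain of the HLA-DM exchange factor that loads peptides and the gene whose Y boxes are printed above, had 204, 978, 325, 169.5 and 642 CPM with pracinostat, against 18.9, 323, 79.9, 75.9 and 146 CPM in DMSOP. Each line rose, OCILY1 from the lowest level, and the groups overlapped because PFEIFFER in DMSOP lay above OCILY1 and TOLEDO in PRACINO. The log2 fold change of HLA-DMA was 2.11 (SE 0.28, adjusted p 0.000425). CIITA, the coactivator that switches these genes on, had 218, 1011, 138, 344 and 522 CPM with pracinostat, against 14.2, 604, 64.3, 249.6 and 156 CPM in DMSOP, with the steepest change in OCILY1 and the slightest in TOLEDO. Its log2 fold change was 1.6 (SE 0.44, adjusted p 0.0186), and the call was lost without SUDHL4 (adjusted p 0.0616), without WSUDLCL2 (0.0678) and in a fit of the 10 libraries alone (0.0732). HLA-DOA, a chain of the modulator HLA-DO, rose by 1.72 (SE 0.38, adjusted p 0.00562) and stood at 0 in DMSOP of OCILY1. HLA-DRA, the invariant alpha chain of HLA-DR, averaged 2629 ± 2011 CPM with pracinostat and 1433 ± 1606 CPM in DMSOP (SD, n = 5 each). OCILY1 was far below the other lines in both groups (27.6 against 2.43 CPM), and the log2 fold change of HLA-DRA was 1.52 (SE 0.36, adjusted p 0.00935), lost without SUDHL4 (0.0538). CD74, the invariant chain, had 1582, 11371, 5119.5, 2879 and 6842 CPM with pracinostat, against 822, 6169, 2825, 2329 and 3806 CPM in DMSOP. It rose by 0.77 (SE 0.12, adjusted p 0.00114), least in TOLEDO. Without SUDHL4 6 class II genes were called. HLA genes are polymorphic and share sequence, so single class II and class I values depend on how reads were aligned.

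Class I presentation had a median of 0.01, with 3 of 18 genes higher and 1 lower. HLA-B rose by 1.56 (SE 0.44, adjusted p 0.0204) and HLA-E by 1.10 (SE 0.27, adjusted p 0.0113), while CANX, the chaperone calnexin, changed by -0.65. The count of genes called higher was 1 without OCILY1, without WSUDLCL2 and in the fit of the 10 libraries alone. HLA-B was lost without OCILY1 (0.0739), SUDHL4 (0.117) or WSUDLCL2 (0.053), and HLA-E without OCILY1 (0.0669). Of 37 listed interferon-stimulated genes 28 were tested. Of these 6 were called higher (21.4%), against 12.3% of all genes tested, and 0 lower, with a median of 0.57. IFIT2, an antiviral protein, had 2.58, 6.06, 4.8, 1.96 and 1.12 CPM with pracinostat, against 0.122, 2.12, 1.52, 0 and 0.341 CPM in DMSOP, higher in each line by 2.28 (SE 0.54, adjusted p 0.00872). GBP1, an interferon-induced GTPase, had 199, 9, 17, 18 and 1 counts with pracinostat, against 4, 0, 0, 3 and 0 counts in DMSOP, so most of its reads came from OCILY1. The count of interferon-stimulated genes called higher was 3 without OCILY1 or without PFEIFFER. A gene near 0 in DMSOP, such as GBP1, passed the filter on low counts only through libraries of other groups. This count is therefore no sign of a property of the list.

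B-lineage genes were called higher in some members and lower in none. Of 36 genes of B-cell receptor signalling and B-lineage identity 7 were called higher (19.4%), against 12.3% of all genes tested. The median of the list was 0.33. PRKCB (ENSG00000166501, GRCh38 chromosome 16, 23835946 to 24220611), the protein kinase C beta that links the receptor to NF-kappaB, had 112, 304, 275, 234 and 85.8 CPM with pracinostat, against 8.28, 6.82, 32.3, 147 and 8.54 CPM in DMSOP. TOLEDO started high and changed least, while PFEIFFER was lowest in DMSOP and highest in PRACINO, and the log2 fold change was 3.33 (SE 0.64, adjusted p 0.00292). MS4A1, which encodes the antibody target CD20, had 1246, 4909, 2854, 811 and 2974 CPM with pracinostat, against 659, 1572, 1628, 468 and 2659 CPM in DMSOP. It was higher in each line, by 0.83 (SE 0.23, adjusted p 0.0167). PAX5, the B-cell identity factor, changed by 0.55 (SE 0.15, adjusted p 0.0164), while CD79A, a receptor subunit, was not called at 0.29 (SE 0.29, adjusted p 0.501). MS4A1 lost its call without OCILY1, SUDHL4 or TOLEDO (adjusted p 0.0607 to 0.0677) and PAX5 without OCILY1, PFEIFFER or SUDHL4 (0.0524 to 0.0855). CR2, the complement receptor CD21, had 3.04, 16.8, 3.15, 4.07 and 2.02 CPM with pracinostat, against 0, 1.18, 1.52, 0.264 and 0 CPM in DMSOP. Its groups did not overlap, at low counts, and the call (adjusted p 0.0115) was lost without PFEIFFER (0.0785). The list count was 2 without SUDHL4 and 4 without OCILY1 or without PFEIFFER, and without PFEIFFER 1 member was called lower.

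Of 26 tested genes of B-cell activation, memory and homing 5 were higher (19.2%), against 12.3% of all genes tested, and 0 lower. The median was 0.63, and 3 were called higher without PFEIFFER or without SUDHL4. CCR7, the receptor that guides lymphocytes into lymph nodes, had 12.5, 171, 2.55, 334 and 31.1 CPM with pracinostat, against 0.122, 6.00, 0.649, 103 and 7.51 CPM in DMSOP. TOLEDO and PFEIFFER held most of it, each line rose, and the log2 fold change was 3.20 (SE 0.66, adjusted p 0.00432). FCER2, the low-affinity IgE receptor CD23, had 35.5, 0.727, 48.5, 19.6 and 4.93 CPM with pracinostat, against 0.243, 0.235, 1.08, 3.95 and 0.341 CPM in DMSOP. In DMSOP 4 libraries had 2 to 5 counts, and the change was smallest in PFEIFFER, with 6 counts in PRACINO against 2 in DMSOP. The fitted change of FCER2 (4.15, SE 0.75, adjusted p 0.00219) ranged over 3.34 to 5.23 without 1 line. TNFRSF13C, the BAFF receptor, rose by 1.39. Of 14 tested antigens of lymphoma antibodies and cell therapies 5 were higher (35.7%), against 12.3% of all genes tested, and 0 lower (median 0.70). Among them were MS4A1 and CD74, counted in lists above as well, CD70 (0.86) and CD52, the alemtuzumab target. CD52 rose by 0.98 (SE 0.21, adjusted p 0.00501). This count was 2 without SUDHL4 and 3 without OCILY1, PFEIFFER or TOLEDO.

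Regulators of the germinal centre and plasma cell states did not move in 1 direction over the lines. BCL6, the germinal centre repressor, had 318, 929, 419, 13.9 and 467 CPM with pracinostat, against 453, 595, 435, 5.67 and 689.8 CPM in DMSOP, higher in PFEIFFER and TOLEDO and lower in the other lines (log2 fold change 0.07, SE 0.32, adjusted p 0.895). IRF4, a factor of activated and plasma cells, was lower in PFEIFFER and TOLEDO, which held nearly all of it, and its log2 fold change was -0.14 (SE 0.68, adjusted p 0.909). PRDM1, the plasma cell repressor Blimp-1, was at 13.6 and 7.99 CPM in PRACINO of PFEIFFER and TOLEDO, against 4.35 and 5.14 CPM in DMSOP, and had at most 7 counts in any library of the other lines. Its log2 fold change was 1.15 (SE 0.42, adjusted p 0.0615), and it was called with DMSOV as control (1.59). CD38, a surface marker of germinal centre and plasma cells, had a log2 fold change of 0.46 (SE 0.50, adjusted p 0.534). Of 16 tested germinal centre genes 3 were higher and 1 lower, among them LMO2, a transcriptional cofactor, with 30.4, 4.97, 143, 1.05 and 262 CPM with pracinostat, against 0.243, 2.00, 3.25, 0.132 and 193 CPM in DMSOP. WSUDLCL2 held most LMO2 in both groups and changed little, and the call (adjusted p 0.0255) was lost without any line but WSUDLCL2 (without OCILY1 0.129, PFEIFFER 0.0575, SUDHL4 0.122, TOLEDO 0.0542). The 3 higher germinal centre genes were 1 without OCILY1 or without PFEIFFER, and 0 without SUDHL4, without TOLEDO and in the fit of the 10 libraries alone, and the 1 lower was not called without OCILY1, without WSUDLCL2 or in the 10 libraries alone. Of 12 plasma cell genes 1 was called, SSR4, a subunit of the translocon-associated complex (0.78), and 2 were without OCILY1 and 3 without PFEIFFER.

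Few genes of cell death were called. Of 9 anti-apoptotic genes 1 was called, BCL2A1, with a rise of 1.55 (SE 0.38, adjusted p 0.0101) that was lost without SUDHL4 (0.0547). BCL2 had 462, 157, 253, 621 and 478 CPM with pracinostat, against 629, 95.5, 218, 529 and 463 CPM in DMSOP, and its log2 fold change was 0.14 (SE 0.20, adjusted p 0.659). MCL1, at -0.15 (SE 0.19, adjusted p 0.604), was not called. Nor was BCL2L11, which encodes the death activator BIM, at 0.30 (SE 0.16, adjusted p 0.179). With DMSOV as control BCL2L11 was called (0.47). BMF, a BH3-only activator of cell death, had 259, 24.7, 194, 64.0 and 227 CPM with pracinostat, against 120.3, 6.47, 50.9, 15.5 and 119.6 CPM in DMSOP. It was higher in each line, by 1.5 (SE 0.29, adjusted p 0.00305), and with BIK (1.38) made 2 of 10 pro-apoptotic BCL2-family genes called higher, against BID as 1 lower (-0.62). The 2 were 1 without PFEIFFER, and BID was not called without OCILY1, SUDHL4, TOLEDO or WSUDLCL2 or in the fit of the 10 libraries alone. CASP10, an initiator caspase of death receptors, had 9.95, 9.69, 8.56, 4.07 and 6.27 CPM with pracinostat, against 1.70, 1.88, 0.433, 2.90 and 1.93 CPM in DMSOP. The groups did not overlap, although TOLEDO changed little, and the log2 fold change was 2.08 (SE 0.48, adjusted p 0.00699). TRAF1, an NF-kappaB target and signalling adaptor, rose in each line by 1.59 (SE 0.27, adjusted p 0.00162).

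Of 23 tested p53 targets 4 were higher and 1 lower, with a median of 0.10. TP53INP1, a p53-induced stress protein, had 152, 34.8, 238, 49 and 154 CPM with pracinostat, against 109, 1.06, 65.2, 10.5 and 42.7 CPM in DMSOP. PFEIFFER had the steepest rise and OCILY1 the slightest, and the log2 fold change was 2.00 (SE 0.48, adjusted p 0.00926). The count of targets called higher was 2 without PFEIFFER, SUDHL4 or WSUDLCL2, and that of targets called lower 0 without any line but WSUDLCL2. MYC, the growth regulator, had 306, 185, 345, 337 and 208 CPM with pracinostat, against 294, 155, 440.3, 266 and 232 CPM in DMSOP. Its groups overlapped fully, with a log2 fold change of 0.02 (SE 0.19, adjusted p 0.942). Around it, MAX, the partner of MYC, rose by 0.46 (SE 0.10, adjusted p 0.00433), MXD4, a repressor that competes for MAX, by 1.02 (SE 0.29), and MLX, a related partner protein, fell by 0.41 on the log2 scale (adjusted p 0.00808). MAX had 95, 92.5, 75.0, 73.7 and 65.2 CPM with pracinostat, against 72.6, 62.9, 59.5, 50.6 and 46.8 CPM in DMSOP, a small rise in each line. MXD4 (adjusted p 0.0209) was lost without PFEIFFER, SUDHL4 or TOLEDO.

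Of 21 targets of the integrated stress response, a pathway through which cells raise amino acid synthesis and uptake, 9 were lower and 0 higher, with a median of -0.69 and 6 to 8 lower without any 1 line. SLC7A11 (ENSG00000151012, GRCh38 chromosome 4, 138164097 to 138242349), the cystine transporter, had 0.703, 9.93, 6.00, 1.36 and 9.86 CPM with pracinostat, against 12.5, 51.1, 23.8, 3.82 and 21.4 CPM in DMSOP. Each line was lower, OCILY1 by the most, and the log2 fold change was -2.05 (SE 0.35, adjusted p 0.00148). SLC7A5, the transporter of large neutral amino acids, had 55.7, 67.2, 93.8, 133 and 78.0 CPM with pracinostat, against 77.8, 407, 286, 306 and 262 CPM in DMSOP, with the smallest change in OCILY1. Its log2 fold change was -1.55 (SE 0.38, adjusted p 0.0105). PHGDH, the first enzyme of serine synthesis, was at 0 in both libraries of SUDHL4 and lower in the other 4 lines (-1.19, SE 0.23, adjusted p 0.00383). Of 17 tested NRF2 and antioxidant genes 6 were lower and 0 higher, among them GCLM, a subunit of the first enzyme of glutathione synthesis (-0.68, SE 0.14, adjusted p 0.00433), and SOD2, the mitochondrial superoxide dismutase (-0.63, SE 0.15, adjusted p 0.00774). That count was 3 without PFEIFFER, SUDHL4 or TOLEDO.

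Of 29 genes of glycolysis and the pentose phosphate pathway 9 were lower and 3 higher, with a median of -0.26. LDHA (ENSG00000134333, GRCh38 chromosome 11, 18394388 to 18408425), lactate dehydrogenase A, had 437, 369, 720.4, 589 and 535 CPM with pracinostat, against 1201, 1054, 1105, 1292 and 765 CPM in DMSOP. No PRACINO library reached a DMSOP library, and the log2 fold change was -1.07 (SE 0.22, adjusted p 0.0038). SLC16A1, a lactate transporter, fell in each line (-0.81, SE 0.16, adjusted p 0.0028), and the related carrier SLC16A3 rose by 1.27. Without OCILY1 or without PFEIFFER 5 members were called lower, and 1 was called higher without OCILY1, PFEIFFER or SUDHL4. Of 34 tested cholesterol and fatty acid genes 8 were lower and 1 higher, and the line medians were -0.48, -1.11, 0.04, -0.48 and 0.28. ACACA, acetyl-CoA carboxylase, had 91.2, 77.5, 103, 34.8 and 93.0 CPM with pracinostat, against 178, 219.5, 137, 103 and 127 CPM in DMSOP, without overlap, and changed by -0.95 (SE 0.22, adjusted p 0.00719), lost without PFEIFFER (0.0581). SCD, the stearoyl-CoA desaturase, had 169, 205, 664, 54.8 and 971 CPM with pracinostat, against 789.5, 1021, 775, 199 and 1008 CPM in DMSOP. WSUDLCL2 was nearly level, and the log2 fold change of SCD (-1.19, SE 0.40, adjusted p 0.0436) was called without WSUDLCL2 and lost without any other line. FADS2, another desaturase, changed by -1.09 (SE 0.33, adjusted p 0.0298) and was lost without OCILY1, PFEIFFER or TOLEDO. The count of lipid genes called lower was 4 without OCILY1, 3 without PFEIFFER and 4 in the fit of the 10 libraries alone.

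Lysosomal genes rose in a few members, with 5 of 38 autophagy and lysosome genes higher, 0 lower and a median of 0.30. GAA, the lysosomal glucosidase, had 3.16, 46.5, 15.5, 45.4 and 9.86 CPM with pracinostat, against 0.487, 10.6, 3.03, 34.9 and 5.58 CPM in DMSOP, higher in each line and least so in TOLEDO (log2 fold change 1.52, SE 0.29, adjusted p 0.00245). CTSA, the protective protein of lysosomal hydrolases, rose by 1.05 (SE 0.17, adjusted p 0.0012). The count was 3 without PFEIFFER and 13 with DMSOV as control. Of 22 heat shock and chaperone genes 4 were lower and 0 higher, among them HSP90AA1, the inducible HSP90, at -0.64 (SE 0.22, adjusted p 0.0461). The 4 became 0 without OCILY1 or without PFEIFFER, 1 without SUDHL4 or without TOLEDO and 7 with DMSOV as control. Ribosome biogenesis gave 3 of 30 members lower, with NCL, a nucleolar protein, at -0.57. That number was 0 without SUDHL4 or without TOLEDO and 13 with DMSOV as control.

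Of 12 listed drug transport genes 9 were tested. Of these 4 were higher, against 12.3% of all genes tested, and 2 lower, against 10.2%, with a median of 0.53. With so few members tested, the list is described for its members and not as a shift. MVP (ENSG00000013364, GRCh38 chromosome 16, 29820394 to 29848039), the major protein of the vault particle, had 30.0, 144, 82.7, 12.5 and 53.6 CPM with pracinostat, against 4.50, 25.0, 9.53, 4.61 and 19.7 CPM in DMSOP. Each line was higher, and the groups overlapped through TOLEDO, which had the least in PRACINO. The log2 fold change was 2.26 (SE 0.27, adjusted p 0.000243). ABCB1, the efflux pump P-glycoprotein, had 21.3, 4.12, 0.6, 16.4 and 57.6 CPM with pracinostat, against 5.24, 0, 0.216, 4.09 and 0 CPM in DMSOP. WSUDLCL2 and PFEIFFER had 0 counts in DMSOP, and SUDHL4 had 4 counts with pracinostat against 1 in DMSOP. The fitted change of ABCB1 (3.62, SE 0.94, adjusted p 0.0139) moved over 2.48 to 4.51 without 1 line, was lost without PFEIFFER (0.0612) and in the fit of the 10 libraries alone (0.0682). ABCC4 changed by -0.90 and ABCC1 by -0.53. The list count was 1 higher without PFEIFFER and 2 without SUDHL4, and 0 lower without OCILY1 or without PFEIFFER. Of 17 tested neuronal genes 6 were higher and 0 lower, with a median of 1.20. MAPT, which encodes the microtubule protein tau, had 7.85, 51.0, 0.3, 7.53 and 1.12 CPM with pracinostat, against 1.46, 10.9, 0, 1.32 and 0.114 CPM in DMSOP. PFEIFFER held most of it, and the log2 fold change was 2.35 (SE 0.36, adjusted p 0.000858). L1CAM, a neural adhesion molecule, had 14.9, 30.9, 0.15, 33.3 and 0 CPM with pracinostat, against 0.609, 0.823, 0, 8.83 and 0 CPM in DMSOP, so SUDHL4 and WSUDLCL2 gave no more than 1 count. Of 30 neuronal genes 13 were not tested, and a gene near 0 in DMSOP passed the filter on low counts only through libraries in which it was higher, so this count is no sign of a property of the list.

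The 10 largest rises by the fixed rule were mostly those of genes with few counts in the DMSOP libraries. ALDH1A1, a retinaldehyde dehydrogenase, had 31.0, 3.51, 15.3, 12.7 and 15.9 CPM with pracinostat, against 0, 0, 0, 0.659 and 0 CPM in DMSOP. In DMSOP 4 libraries had 0 counts and TOLEDO 5, and the groups did not overlap (adjusted p 0.000425). ITGAX, which encodes the integrin CD11c, had 4.68, 37.8, 1.05, 0.301 and 70.4 CPM with pracinostat, against 0, 0.235, 0, 0 and 2.73 CPM in DMSOP. It was higher in each line, although TOLEDO had 2 counts in PRACINO and 0 in DMSOP. LILRB1, an inhibitory receptor of leukocytes, had 26.5, 50.4, 132, 9.34 and 47.7 CPM with pracinostat, against 0, 4.82, 84.4, 0 and 0.114 CPM in DMSOP, and SUDHL4 had it in both groups. Others among the 10 were DGKG, SDC3, TUBB2B, FCER2, BAIAP2L1 and CARNS1. Fitted folds of such genes depend on the prior count and on single lines. Without 1 line that of ALDH1A1 moved over 6.25 to 10.22, that of ITGAX over 5.21 to 7.73, that of DGKG over 4.55 to 8.79, that of SDC3 over 3.71 to 6.87, that of LILRB1 over 3.57 to 5.97, that of BAIAP2L1 over 2.95 to 4.38 and that of CARNS1 over 3.05 to 4.48. These 9 genes were called without each line in turn, but they were picked by call and fold in these same data. A gene near 0 in DMSOP, such as ALDH1A1, passed the filter on low counts only through libraries of other groups. The calls without a line are therefore no independent support.

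**Figure D3:**
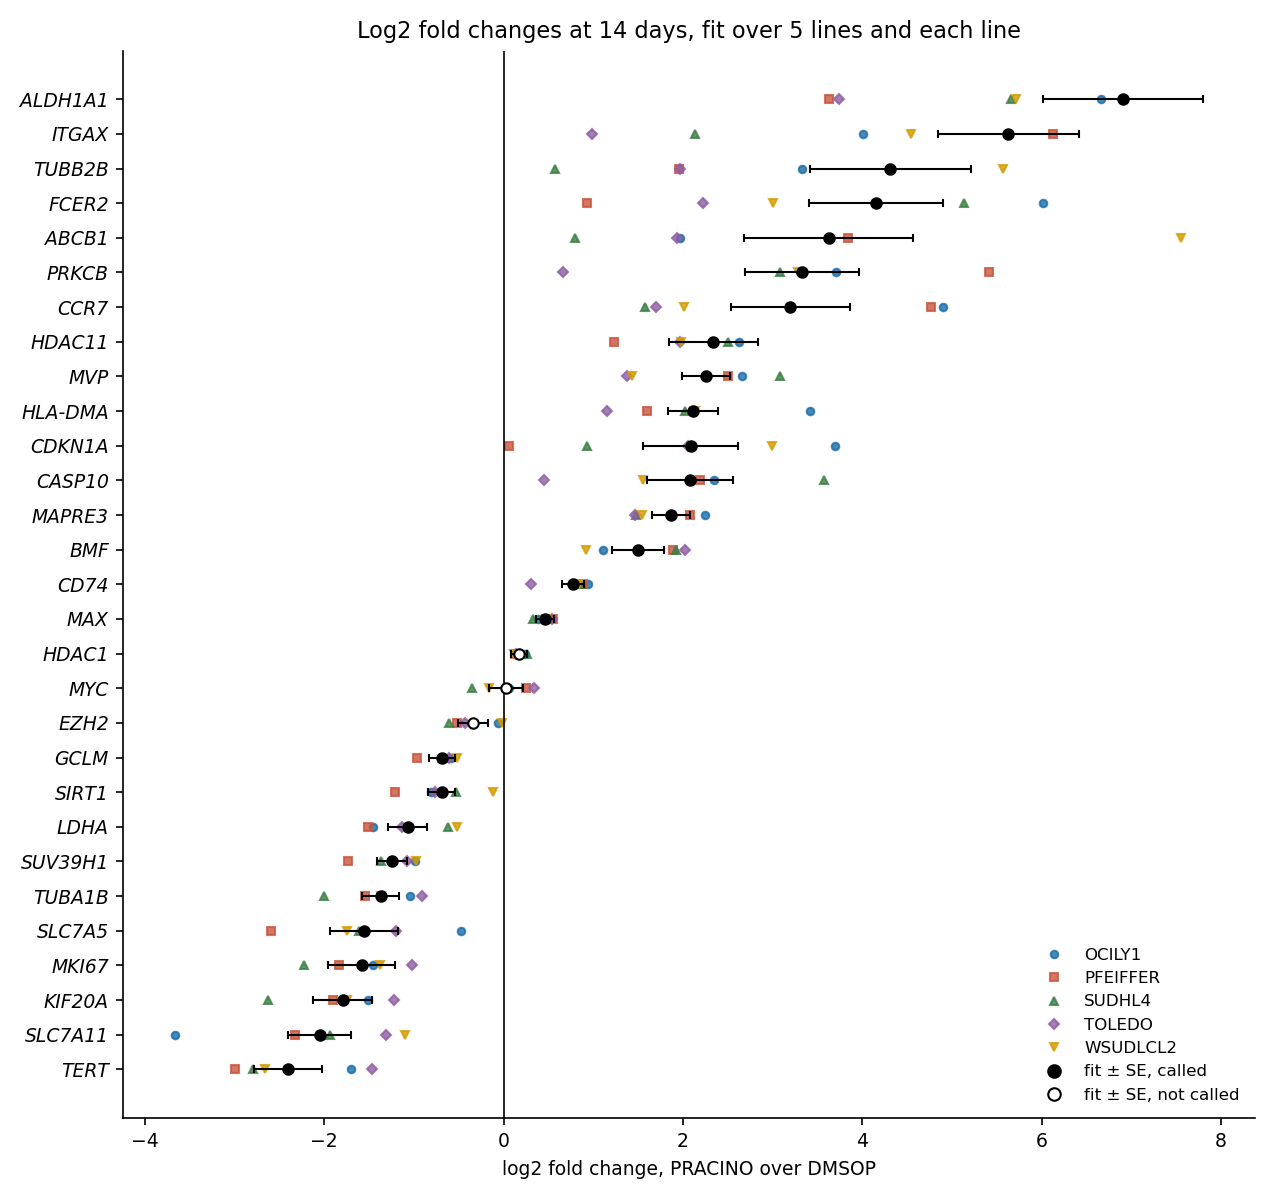
Log2 fold change, PRACINO over DMSOP at 14 days, of 29 genes, with the fit over 5 lines as a black circle with its SE (filled where called, open where not) and each line as a coloured symbol. Line values use log2 CPM with a prior count of 2 and so lie nearer 0 than the fit for genes almost absent from DMSOP, such as ALDH1A1; MYC, HDAC1 and EZH2 are among the open circles.

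Markers of other cell types were examined beside these rises. Of 6 myeloid markers, ITGAM, CSF1R and CD33 were analysed and were called higher, with a summed level of 0.753 to 18.9 CPM in PRACINO (median 13.9) and 0 to 1.515 CPM in DMSOP (median 0.228). These 3 passed the filter on low counts only through PRACINO or VORINO libraries, so that all are called is no support for a change of cell type. The count was 1 without PFEIFFER, SUDHL4 or WSUDLCL2, where some no longer passed the filter, and 0 in the fit of the 10 libraries alone. CSF1R was lost without PFEIFFER (0.0537) and with DMSOV as control (0.0549). CD14, CD68 and LYZ were not analysed here. CD33, a myeloid sialic acid receptor, had 31, 17, 24, 2 and 10 counts with pracinostat, against 0, 2, 1, 0 and 0 counts in DMSOP. ITGAM, the integrin CD11b, had 10, 83, 38, 0 and 19 counts with pracinostat, against 0, 0, 2, 0 and 0 counts in DMSOP. Of 5 T and NK cell markers CD3D, CD3E and NKG7 summed to 0.820 to 4.35 CPM in PRACINO (median 1.79) and 0.2435 to 1.95 CPM in DMSOP (median 0.910), and 0 of them passed the filter. Of a longer list of 18 T and NK cell genes 4 were tested, and TRAC, which encodes the T-cell receptor alpha constant region, was called higher (1.32, adjusted p 0.022). It was not called without OCILY1, without SUDHL4 or in the fit of the 10 libraries alone. Of 6 stromal, endothelial and epithelial markers 5 summed to 12.8 to 177.3 CPM in PRACINO (median 21.1) and 0.852 to 270.3 CPM in DMSOP (median 19.8), with PECAM1 called higher (adjusted p 0.0456). PECAM1 lost its call without any line but TOLEDO (adjusted p 0.0778 to 0.101), with DMSOV as control (0.169), with library totals (0.0565), with no filter (0.0548) and in the fit of the 10 libraries alone (0.0568). Of a longer list of 16 such markers 5 were tested and 2 called higher, PECAM1 and PDGFRB, a receptor of stromal cells (2.64, adjusted p 0.00319). That count of 2 was 0 without PFEIFFER, where PDGFRB did not pass the filter on low counts, and in the 10 libraries alone. Of all genes tested 12.3% were called higher. With 4 and 5 members tested, the counts of these longer lists are no sign of a property of either list. Germinal centre markers BCL6, MME and LMO2 summed to 217.7 to 943.4 CPM in PRACINO (median 681) and 406 to 1182 CPM in DMSOP (median 691.4). PRDM1, SDC1 and IRF4 of the plasma cell markers summed to 0.600 to 337.9 CPM in PRACINO (median 29.8) and 1.08 to 583 CPM in DMSOP (median 15.7). CD2, CD7, COL1A2, XBP1 and the erythroid marker HBB were not analysed here. The part of other cells in these results was not tested.

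For some genes the direction was not the same in every line. The 5 genes with the widest range of line changes, among well-measured genes with a 2-fold rise in 1 line and a 2-fold fall in another, were GLUL, MET, TPM2, SLC1A1 and MGLL. GLUL, glutamine synthetase, had 45.4, 249, 0, 272 and 29.6 CPM with pracinostat, against 3.53, 631, 0, 459 and 0 CPM in DMSOP. With pracinostat it was higher in OCILY1 and WSUDLCL2, lower in PFEIFFER and TOLEDO and at 0 in SUDHL4. MET, the hepatocyte growth factor receptor, reached 364 CPM in PRACINO of OCILY1, against 6.33 CPM in its DMSOP. Of these 5 genes it alone was called (3.39, SE 1.00, adjusted p 0.0248), and without OCILY1 its change was 1.66 (adjusted p 0.254). TPM2, a tropomyosin, was at 559.6 CPM in PRACINO of OCILY1, against 105 CPM in its DMSOP, and at 0.224 CPM in PRACINO of WSUDLCL2, against 10.5 CPM in its DMSOP. SLC1A1, a glutamate transporter, had a log2 fold change of 0.92 (SE 0.74, adjusted p 0.383) and MGLL, monoglyceride lipase, of 1.22 (SE 0.85, adjusted p 0.31). In all, 279 of the 10620 genes had a 2-fold rise in 1 line and a 2-fold fall in another.

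**Figure D4:**
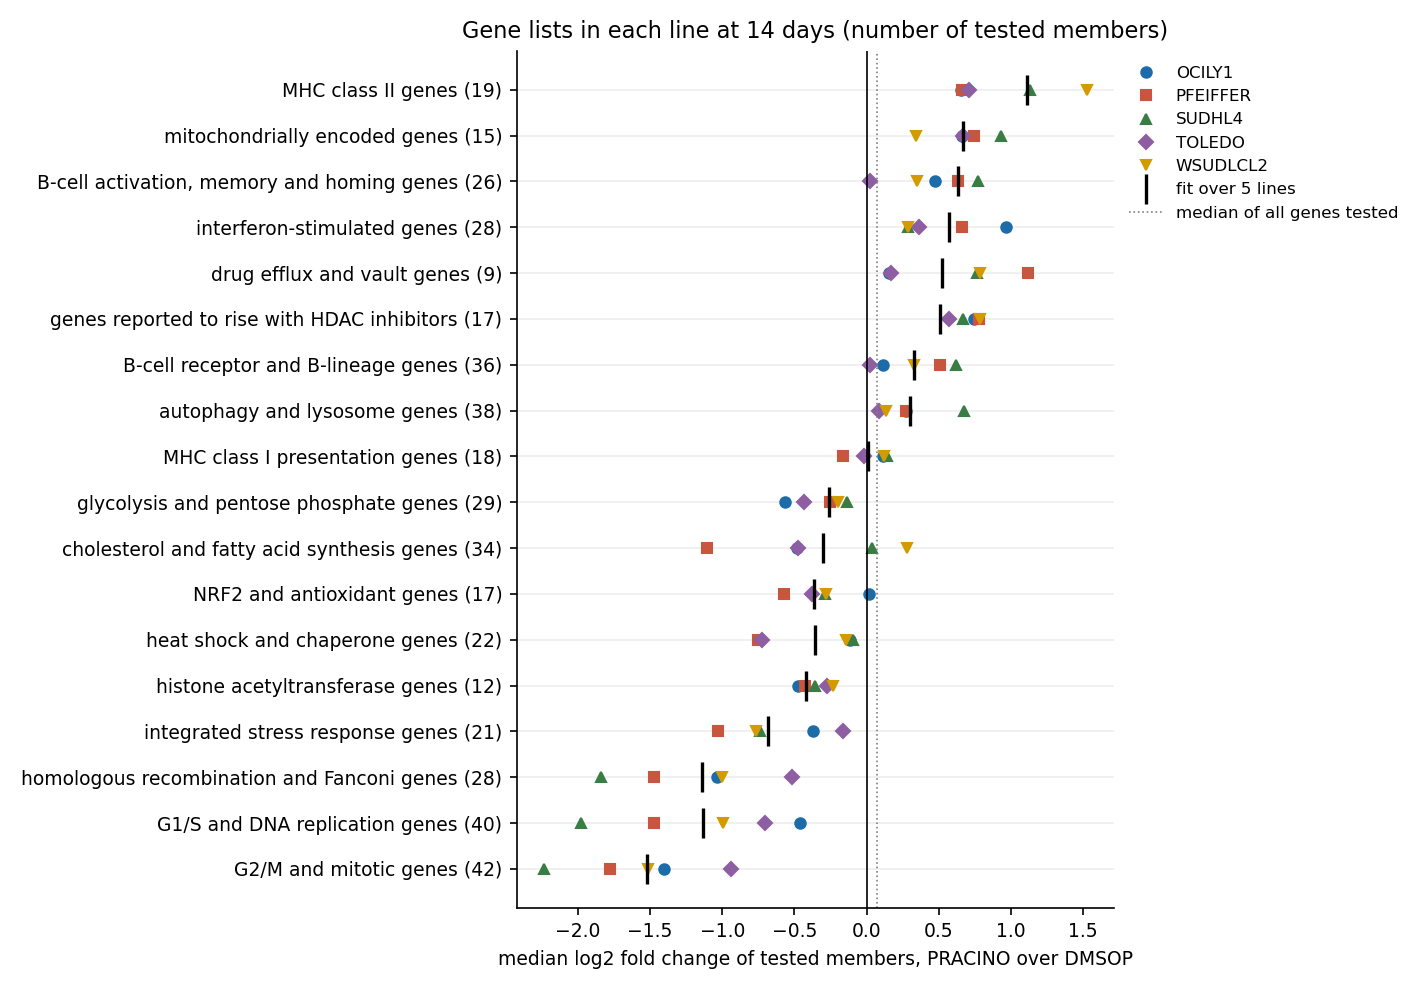
Median log2 fold change, PRACINO over DMSOP at 14 days, of the tested members of 18 gene lists (number of tested members in brackets), with 1 coloured symbol per line, a black bar for the fit over 5 lines and a dotted line at the median of all genes tested (0.07). The G2/M list lies below 0 in each line, from -2.23 in SUDHL4 to -0.94 in TOLEDO, and the lipid list spans -1.11 in PFEIFFER to 0.28 in WSUDLCL2.

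The share of counts from mitochondrially encoded genes was 17.0, 11.1, 14.9, 14.7 and 14.1% in PRACINO, against 10.6, 6.45, 8.76, 8.02 and 11.0% in DMSOP. Each line was higher in PRACINO, by a mean of 5.40 percentage points (SD 1.48, n = 5, range 3.13 to 6.68), with p = 0.0625 in an exact two-sided paired permutation test, the smallest that 5 pairs can give. Of 15 mitochondrially encoded genes 14 were called higher and 0 lower, with a median of 0.67, and 9 were called without PFEIFFER. MT-ND6, the subunit of complex I encoded on the light strand, had 1973, 2029, 2111, 1597 and 1808 CPM with pracinostat, against 1162, 721, 1249.5, 744 and 1086 CPM in DMSOP. Its groups did not overlap (log2 fold change 0.97, SE 0.20, adjusted p 0.00379). MT-RNR2, the large mitochondrial rRNA, averaged 28602 ± 8772 CPM with pracinostat and 14373 ± 5205 CPM in DMSOP (SD, n = 5 each). Nuclear copies of mitochondrial DNA share sequence with these genes, and the part of this shift in other results was not tested.

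The effect at 14 days was set against that of pracinostat at 6 h, which comes from other libraries of the same lines and of SUDHL6. At 6 h pracinostat gave 4867 of 15420 genes called (31.6%). In 1 fit of all 37 libraries with counts the difference between the times was called for 2986 of 15420 genes (19.4%), 1470 with the higher effect at 14 days (9.53%) and 1516 with the lower (9.83%). Without SUDHL4 the count was 1599. The G2/M list, at a median of -1.52 at 14 days, had a median of 0.20 at 6 h, and the difference was called in 42 of 42 members. KIF14 had log2 fold changes of -1.87 (SE 0.30) at 14 days in this fit and 0.54 (SE 0.26) at 6 h, with an adjusted p of 0.000202 for the difference. AUNIP had log2 fold changes of -2.12 (SE 0.28) and 0.66 (SE 0.24), with an adjusted p of 2.01e-05. Class II genes had a median of 1.11 at 14 days and 0.05 at 6 h, with the difference called in 12 of 19. HLA-DRA had log2 fold changes of 1.48 (SE 0.29) and -0.06 (SE 0.27), with an adjusted p of 0.00849. B-lineage genes had medians of 0.33 and -0.69, and 22 of 36 differed. MS4A1 had log2 fold changes of 0.81 (SE 0.20) at 14 days and -0.90 (SE 0.19) at 6 h, with an adjusted p of 0.00014. MYC (0.00, SE 0.21, against -1.07, SE 0.19) and BCL2 (0.12, SE 0.19, against -0.94, SE 0.18) had effects near 0 at 14 days and below 0 at 6 h, and the differences had adjusted p-values of 0.00883 and 0.00512. Genes reported to rise with HDAC inhibitors were at medians of 0.51 and 0.77, and the difference was called in 1 member.

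**Figure D5:**
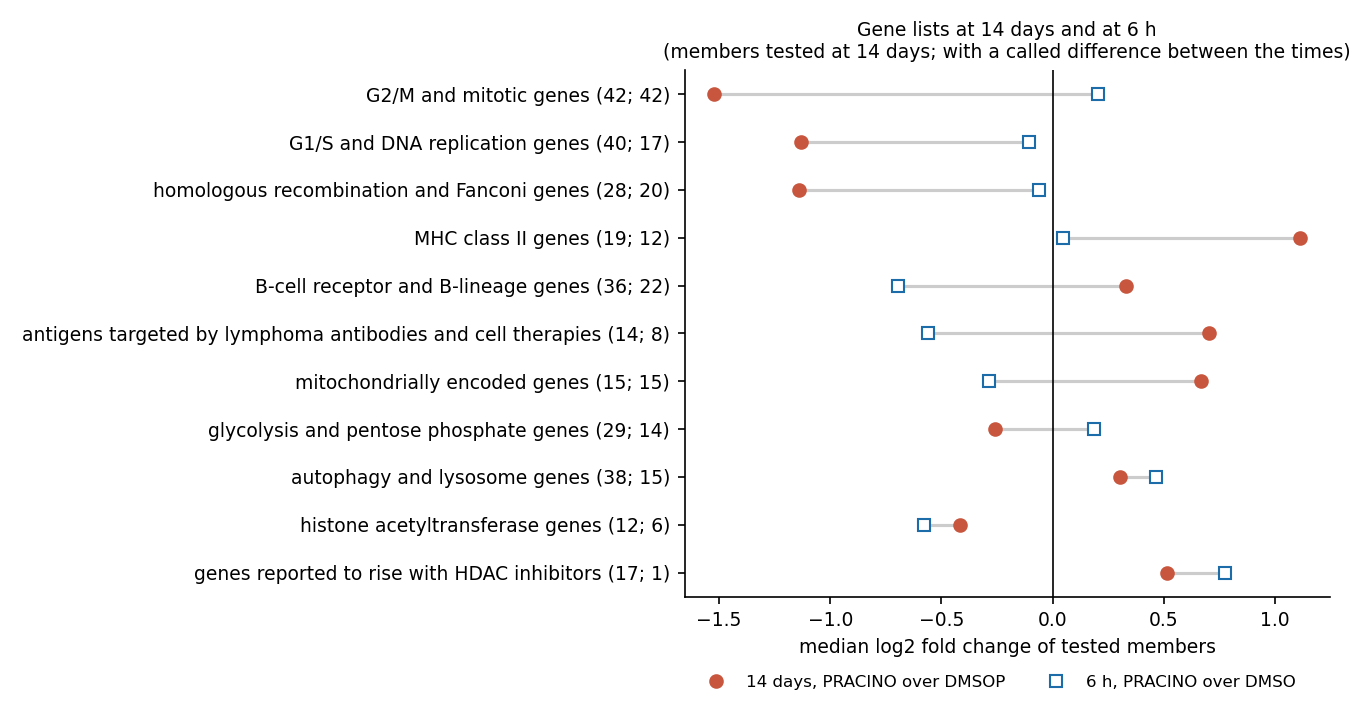
Median log2 fold change of the tested members of 11 gene lists with pracinostat, at 14 days against DMSOP (filled circles) and at 6 h against DMSO (open squares), with the number of members tested at 14 days and the number with a called difference between the times in brackets. The 3 cell cycle and repair lists are far below 0 at 14 days and near 0 at 6 h, and the class II list is at 1.11 and 0.05.

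At 14 days vorinostat, a hydroxamic acid as well, was set against DMSOV in the same fit, at a dose that is not given either, and 5274 genes were called (37.6%), 2864 higher (20.4%) and 2410 lower (17.2%). The pracinostat effect less the vorinostat effect was called for 0 of 14037 genes (552 at an unadjusted p under 0.05), and PRACINO against VORINO directly for 0 (1281 unadjusted, smallest adjusted p 0.222). Between the solvents, DMSOP against DMSOV, 0 genes were called (83 unadjusted). That is fewer genes than a threshold of 0.05 passes where nothing differs. The spread that all libraries of 14 days share was thus wide for the solvent contrast. Its 0 is therefore no measure of wrong calls among the 3167 genes called for pracinostat. Nor do the counts of 0 between the drugs show that they act alike. For 8 genes picked after their values were seen, those of the plot of levels by library, the difference was -1.05 for CDKN1A (95% interval -2.63 to 0.54 with 12 residual degrees of freedom). It was 0.71 for KIF20A (-0.30 to 1.72), -0.43 for HLA-DMA (-1.24 to 0.39), 1.61 for TERT (0.34 to 2.88) and -0.92 for MVP (-1.73 to -0.10), with adjusted p = 0.9995 over all genes for each. The others were CIITA at -0.21 (-1.52 to 1.09), PRKCB at 0.05 (-1.70 to 1.80) and SLC7A11 at 0.03 (-1.03 to 1.08). Set against DMSOV in place of DMSOP, pracinostat gave 4120 genes called (29.4%), a comparison that shares its PRACINO libraries with the one described here.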

How the data were processed

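The deposited table holds raw read counts for 18011 genes in 37 libraries. The submitters' processing notes name STAR, edgeR and hg38, with no version. Per the labels' protocols, RNA was taken with Trizol and libraries were made with an Illumina TruSeq kit. The strand setting, annotation release and any filter before deposit are not stated in those sources. The deposited normalized table was not used.

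From the counts, edgeR 4.0.16 (R 4.3.3) fitted a robust quasi-likelihood model to the 20 libraries of 14 days, with TMM scaling, filterByExpr (minimum count 10, minimum total 15), the group and the cell line as block, which left 12 residual degrees of freedom. Libraries of a line pair because they come from the same line. The time difference came from 1 fit of 37 libraries with line and time as block. limma 3.58.1 was loaded by edgeR, and DESeq2 1.42.0 was an alternative. Simulated data had 13757 genes tested and 200 genes changed, in PRACINO alone and by the same fold in every line. On them the fit of this comparison called 53.8% of 2-fold and 86.1% of 4-fold changes, with 5.96% wrong calls. In the data described here more genes were called, vorinostat had effects and lines differed, so these rates need not hold. Gene names and coordinates are from GENCODE 29 on GRCh38, matched for 17859 IDs, mostly with another ID version.

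Named genes are the 10 largest rises and falls of genes that were called, had 1 sign in 5 lines and averaged 2 or more on the log2 CPM scale, up to 3 called members per direction in 43 gene lists, a set named whatever its values, the 5 genes with the widest range over lines, and 5 per direction for the time difference. A few genes that this rule or the lists name are not reported here. The members and lists were chosen with earlier results of these data known. Line values are log2 CPM with a prior count of 2. Alternatives were other scalings, no filter, the 10 libraries alone, no block, DMSOV or the mean of both solvents as control, a minimum fold of 2, and each line left out in turn.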

Additional observations from a re-analysis of the deposited data

Results flagged for a closer look

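In 4 of 114 genes and other measures examined over the 5 lines, 1 line lay far from the others, where chance picks about 1 in 20. The log2 fold change of HDAC6, a tubulin deacetylase, was -0.15 in WSUDLCL2, against 0.13 to 0.23 in the other lines. That of CD74, the class II invariant chain, was 0.31 in TOLEDO and 0.85 to 0.94 elsewhere. CR2, the complement receptor CD21, was at 0.92 in SUDHL4 and at 2.91 to 3.53 elsewhere. CTSA, a lysosomal hydrolase, was at 0.20 in TOLEDO and at 1.17 to 1.32 elsewhere.

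The effect of pracinostat was compared between 14 days and 6 h by the interaction in edgeR's quasi-likelihood fit of 37 libraries. It differed for the 21 genes of this and the next paragraph, which are only a part of the named genes. The 5 with the largest differences per direction, among genes averaging 2 or more on the log2 CPM scale, were named by this same test. That all 21 differ is therefore no result of its own. Other named genes differed too, such as KIF20A (adjusted p 0.00437) and TUBA1B (0.00202). No difference was called for CDKN1A, with 2.08 (SE 0.48) at 14 days and 2.04 (SE 0.43) at 6 h (adjusted p 0.974). Differences (14 days minus 6 h, log2) above 0 were largest for ITGAX with 6.19, FCER2 with 6.07, CTSO, a cysteine protease, with 5.84, MPEG1, a perforin-like protein, with 5.26 and DGKG, a lipid kinase, with 4.92, with adjusted p-values of 0.0182, 7.35e-05, 1.88e-05, 7.39e-05 and 0.0144. CTSO was at 2.48 (SE 0.51) at 14 days and at -3.36 (SE 0.56) at 6 h, and MPEG1 at 3.47 (SE 0.59) and -1.80 (SE 0.51). In the 14-day fit CTSO had 8.43, 31.9, 0.15, 18.7 and 4.03 CPM with pracinostat, against 0.852, 3.65, 0, 12.0 and 0.455 CPM in DMSOP. Each line was higher with pracinostat at 14 days, although the 0.15 CPM of SUDHL4 lies within what a count of 0 in DMSOP allows.

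Differences below 0 were largest for DNMT3B with -2.97, AUNIP with -2.77, PSRC1 with -2.69, NEK2 with -2.68 and DLGAP5 with -2.63. DNMT3B, a DNA methyltransferase, was at -1.46 (SE 0.33) at 14 days and at 1.5 (SE 0.29) at 6 h, and PSRC1 at -1.60 (SE 0.34) and 1.09 (SE 0.30). KIF14 differed by -2.40 and MKI67 by -1.41. Of the class II genes, HLA-DRA differed by 1.53, HLA-DMA by 1.28 and CD74 by 1.01. Of the B-cell genes, MS4A1 differed by 1.71 and PAX5 by 1.06, and both were below 0 at 6 h. MYC differed by 1.07 and BCL2 by 1.05. The mitochondrial transcripts MT-ND6 and MT-RNR2 differed by 1.47 and 1.06.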

How the results depend on the processing

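Of 14037 genes 3167 were called (1733 higher, 1434 lower). With DESeq2 size factors 3139 were called, with library totals 3226 (1499 higher, 1727 lower), with DESeq2's Wald test 3739, without a filter on low counts 3424 and with DMSOV as control 4120, none of them over 1.5 times apart. Totals moved the median of all genes to 0.01, against 0.07. With the mean of both solvents as control 5008 were called (2873 higher, 2135 lower), in the 10 PRACINO and DMSOP libraries alone 1950 (942 higher, 1008 lower), and past a minimum fold of 2 (glmTreat) 156 (151 higher, 5 lower). With no replicate block, 8 genes were called (6 higher, 2 lower), and 75 for the difference between times, against 2986. The pairing is that of cell lines, and of 111 named genes 90 lost their call without the block.

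Without 1 line the count was 1424 to 2766, that of higher genes 833 to 1560 and that of lower genes 591 to 1231, lowest without PFEIFFER in each case. The time difference had 1599 (without SUDHL4) to 2892 genes. Under the 12 alternatives other than the block and the minimum fold 898 genes (422 higher, 476 lower) were called each time. The counts of DMSOP against DMSOV and of the difference between the drugs were 0 under library totals, without the block and without each line. The mitochondrial difference was 5.07 to 5.96 percentage points without 1 line. Per-line counts of genes changed 2-fold were 1107 to 1985 with a prior count of 0.5 and 1812 to 3043 with a mean of at least 1 CPM, against 965 to 1885, TOLEDO lowest each time.

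Named genes that changed sign were not called in the fit reported. Without 1 line, CD79A was at -0.020 to 0.50, BCL6 at -0.15 to 0.28, IRF4 at -0.63 to 0.48, MCL1 at -0.32 to 0.042, MYC at -0.073 to 0.13 and TPM2 at -0.82 to 1.48. With no replicate block, BCL6 was at -0.021, MCL1 at 0.025, MYC at -0.0075, GLUL at -0.88, SLC1A1 at -0.11 and MGLL at -0.0014. With DESeq2, IRF4 was at 0.061. With DMSOV as control, IRF4 was at 0.029 and MYC at -0.030, with the mean control MYC was at -0.0026, and with library totals at -0.046. The causes were not tested. Named genes lost a call most often without PFEIFFER (17 of 108), SUDHL4 (14 of 109) and OCILY1 (13 of 110), and a single gene lost its call under library totals. Each group had 1 library per line, so changes under 2-fold and genes under about 1 CPM are measured least firmly.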

Other observations

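A few signalling genes that the comparison of gene groups left out were called higher. They are described as single genes and not as a shift of their lists. IL4R, the interleukin 4 receptor, had 604, 182, 251 and 62.8 CPM with pracinostat in OCILY1, PFEIFFER, SUDHL4 and TOLEDO, against 220, 27.2, 68.4 and 38.0 CPM in DMSOP, and in WSUDLCL2 497 against 317 CPM. Each line was higher, with a log2 fold change of 1.45 (SE 0.34, edgeR adjusted p 0.0085). IL4R was the 1 gene called of 15 tested JAK-STAT genes (6.67%), below the 12.3% of all genes called higher. Of 18 tested NF-kappaB targets 3 were higher and 1 lower, with a median of 0.16, a share near the 12.3% of all genes. EBI3, a cytokine subunit, was at 0 counts in OCILY1 and TOLEDO in both groups. Of 18 tested AP-1 and immediate early genes 2 were higher (11.1%, near the 12.3% of all genes) and 0 lower, with a median of 0.65. They were EGR2, a zinc finger factor, at 2.98 (SE 0.66, adjusted p 0.00584) and DUSP6, a phosphatase of ERK, at 1.43 (SE 0.49, adjusted p 0.0454). None of the 18 was called without PFEIFFER, and 6 were with DMSOV as control.

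Of 12 tested Notch genes 1 was higher (8.33%, against 12.3% of all genes tested), and 0 without OCILY1 or without PFEIFFER. It was the ligand gene DLL1, at 1.99 (SE 0.57, adjusted p 0.0205). Of 5 tested metallothionein genes, which bind metal ions, 1 was higher, MT2A at 2.05 (SE 0.66, adjusted p 0.036), and 0 without OCILY1 or without SUDHL4. Metallothionein copies are alike in sequence, so its reads may be shared. Of 20 caspase, apoptosome and death receptor genes 2 were higher (10%, below the share of all genes), and 1 without OCILY1, PFEIFFER or SUDHL4. They were CASP10 and TNFSF10, the death ligand TRAIL, at 1.47 (SE 0.48, adjusted p 0.0381).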
